A study of Daphnia magna with 20 samples.

Results

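A set of 200 transcript targets of the water flea Daphnia magna, out of 26646 measured, stood higher both in animals exposed to lithium cobalt oxide (LCO) at 10 mg/L and in animals exposed to dissolved lithium and cobalt than in animals exposed to LCO at 1 mg/L or in controls. The members were chosen by their group medians of CPM, each target's estimated count scaled to the library's total (counts per 1000000), with 0.5 added. The medians at LCO 10 mg/L and with the ions each had to reach 1.5 times the median at LCO 1 mg/L and 1.5 times the control median. The LCO 10 mg/L median had to lie between 0.5 and 1.5 times the ion median and to reach 2. These limits were passed by 307 targets, and the 200 with the largest value of the smallest of the 4 ratios were kept, numbered below by rank from 1 for the largest. The difference that defines the members is therefore a description of how they were found and is given without a test. The rule set no direct limit on the ratio of LCO 1 mg/L to control, but its limits on the other ratios hold this ratio in bounds too.

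LCO is the cathode material of many lithium-ion batteries, and as a nanomaterial in water it sheds part of its lithium and cobalt as dissolved ions while the rest stays particulate. Cobalt is an essential trace metal as the centre of vitamin B12, but in excess it can take the place of other divalent metals in proteins. Lithium inhibits glycogen synthase kinase and follows sodium through several transporters. Daphnia filters particles from the water as food, so it meets a suspended nanomaterial both at its surface and in its gut.

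RNA was sequenced from whole, wild-type animals that were 5 days old and had been kept for 48 h in moderately hard water. The 4 groups were LCO at 10 mg/L, ions (lithium at 66 µg/L and cobalt at 15 µg/L, both added as chlorides and matched to what LCO at 10 mg/L gives off in that time), LCO at 1 mg/L, and control, which was the same water with nothing added. Each group held 5 libraries, each from a pool of 10 animals. The labels do not say that the pools came from separate vessels, so the p-values below measure the spread between these pools, which may be technical in part. LCO 10 mg/L replicate 1 carries a treatment tag that reads untreated, whereas its title and the series description both put it at the higher dose. In whole animals, fewer cells of a type and less RNA per cell cannot be told apart. The target identifiers carry no gene name, so the targets are given by identifier, and what each encodes is not described.

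Total estimated counts ran from 20744445 to 44181066 per library. A pair of libraries stood apart in these targets, LCO 1 mg/L replicate 5 and control replicate 1. LCO 1 mg/L replicate 5 lay at 2 or more times the median of its own group in 110 of the 200 members (55%), against 4.26% of the 16163 targets with enough counts to be tested. Control replicate 1 did so in 66 members (33%), against 3.48% of the tested targets. The medians in the rule pass over a single high library, so members could be chosen although one library of a low group stood as high as the exposed libraries. The main counts of called members below that rest on these libraries are given with and without them. So are the fold changes at LCO 1 mg/L of KZS10132, KZS04055 and KZS03171, in which both libraries stood high. Those of the other named members with both high are not given. LCO 10 mg/L replicate 1 lay at 2 or more times its group median in 2 members, which the rule chose in part with that library, and in 1.69% of the tested targets, the largest such share among the 5 libraries of its group (0.0495% to 0.897% in the other 4). Without it the rule passed 320 targets, among them 184 of the 200 members.

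The members together took a larger share of the RNA in the groups that the rule raised. Their summed share of all counts was 3.58% ± 0.582 at LCO 10 mg/L, 3.96% ± 1.26 with the ions, 1.54% ± 0.964 at LCO 1 mg/L and 1.49% ± 1.10 in control (SD, n = 5 each). The lowest library held 2.81% at LCO 10 mg/L and 2.59% with the ions. LCO 1 mg/L replicate 5 held 3.24% and control replicate 1 held 3.40%, which lay inside the range of the LCO 10 mg/L and ion libraries. The other 4 libraries at LCO 1 mg/L held at most 1.36%, and the other 4 control libraries held at most 1.35%.

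The same split was seen in the typical member. For each library, the median over the 200 members of log2(CPM + 0.5) relative to the member's control median was taken. At LCO 10 mg/L it was 1.42, 1.27, 1.12, 1.53 and 1.58 in replicates 1, 2, 4, 5 and 6. With the ions it was 1.14, 2.15, 1.28, 1.86 and 1.74 in replicates 1, 3, 4, 5 and 6. The LCO 10 mg/L libraries thus lay close together, whereas ion replicates 1 and 4 lay below the other 3 ion libraries. At LCO 1 mg/L the medians were 0.06, -0.16, -0.02, 1.06 and 0.11 in replicates 1, 2, 3, 5 and 6, and in control they were 0.46, 0, 0.09, 0 and -0.29 in replicates 1, 2, 4, 5 and 6. The value of 1.06 in LCO 1 mg/L replicate 5 was below that of every LCO 10 mg/L and ion library but nearer to them than to its own group. Over all tested targets the library medians stayed between -0.01 and 0.12, so no library was shifted as a whole by this amount.

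The ratios by which members were chosen were modest for most and large for a few. The ratio of LCO 10 mg/L to control had a median of 2.56 over the members and ran from 1.66 to 33.1, and the ratio of ions to control had a median of 3.18. Against LCO 1 mg/L the median ratio was 2.40 for LCO 10 mg/L and 2.95 for the ions. The smallest of the 4 ratios reached 2 in 108 members, 4 in 27 and 8 in 12. The last member kept, KZR95496, had a smallest ratio of 1.638, and the first target left out, KZS20840, had 1.637. Members spanned a wide range of abundance, since the control median was under 1 CPM in 24 members, 1 to 10 CPM in 75, 10 to 100 CPM in 77 and 100 CPM or more in 24. Per length, their median level was 22.7 TPM at LCO 10 mg/L, 28.5 TPM with the ions, 8.08 TPM at LCO 1 mg/L and 8.00 TPM in control. The tested targets had medians of 9.77, 9.94, 10.1 and 9.82 TPM in the same order of groups, so in the groups without a raised level the members were about as abundant as a typical tested target.

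The member with the largest smallest ratio was KZS18283, a target of 615 bases. Its level was 26.9, 12.7, 9.82, 23.7 and 36.1 CPM at LCO 10 mg/L and 4.14, 53.0, 5.98, 59.6 and 37.7 CPM with the ions. It was 0.342, 1.03, 0.460, 11.6 and 1.17 CPM at LCO 1 mg/L, and 3.62, 0.284, 1.25, 0.747 and 0.287 CPM in control, with replicates in the order of their numbers throughout. LCO 1 mg/L replicate 5, at 11.6 CPM, exceeded ion replicates 1 and 4 and LCO 10 mg/L replicate 4, so the groups overlapped through that library, and the other 4 LCO 1 mg/L libraries and all control libraries lay below every LCO 10 mg/L and ion library.

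KZS16708, at rank 2, is 2170 bases long and had fractional counts in 14 libraries, which arise where reads are divided between similar targets, so its level is uncertain. Its level was 393, 198, 117, 2494 and 1757 CPM at LCO 10 mg/L and 27.0, 3374, 38.0, 2067 and 337 CPM with the ions. It was 13.1, 5.12, 4.21, 196 and 7.89 CPM at LCO 1 mg/L, and 52.6, 3.90, 33.4, 22.5 and 6.72 CPM in control. Its ion libraries spread widely, with replicates 1 and 4 inside the control range and replicates 3 and 5 among the highest of all libraries.

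The most abundant members at LCO 10 mg/L by CPM were KZS16944 and KZS10777, at ranks 11 and 115. KZS16944 stood at 3245, 2336, 1900, 3906 and 2826 CPM at LCO 10 mg/L, 914, 2935, 624, 4473 and 2591 CPM with the ions, 313, 276, 238, 2782 and 540 CPM at LCO 1 mg/L, and 1572, 102, 276, 66.2 and 61.1 CPM in control. Apart from LCO 1 mg/L replicate 5 and control replicate 1, no LCO 1 mg/L or control library reached the lowest of the LCO 10 mg/L and ion libraries. KZS10777 stood at 3253, 2360, 2390, 2014 and 1750 CPM at LCO 10 mg/L, 1991, 1042, 1404, 2050 and 2577 CPM with the ions, 1036, 817, 805, 2697 and 1525 CPM at LCO 1 mg/L, and 1814, 493, 1329, 452 and 494 CPM in control. Its smaller ratios came with overlap in several libraries, since control replicate 4 and LCO 1 mg/L replicate 6 also exceeded the lowest ion library.

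Members were sorted by whether LCO 1 mg/L replicate 5 and control replicate 1 lay at 2 or more times their own group median. This sorting was made after the values were seen, is set by those libraries and carries no test. Neither library stood high in 88 members, LCO 1 mg/L replicate 5 alone in 46, both in 64, and control replicate 1 alone in KZS08367 and KZS20137. The 88 members with neither library high had the smaller ratios, with medians of 2.12 for LCO 10 mg/L over control and 3.00 for ions over control. The 64 with both high had medians of 3.50 and 3.57 for the same ratios, and they were less abundant, with a median of 17.1 CPM at LCO 10 mg/L and 5.29 CPM in control. In the 88 members the ion median exceeded the LCO 10 mg/L median in 77, whereas in the 64 members it did so in 36.

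**Figure D1:**
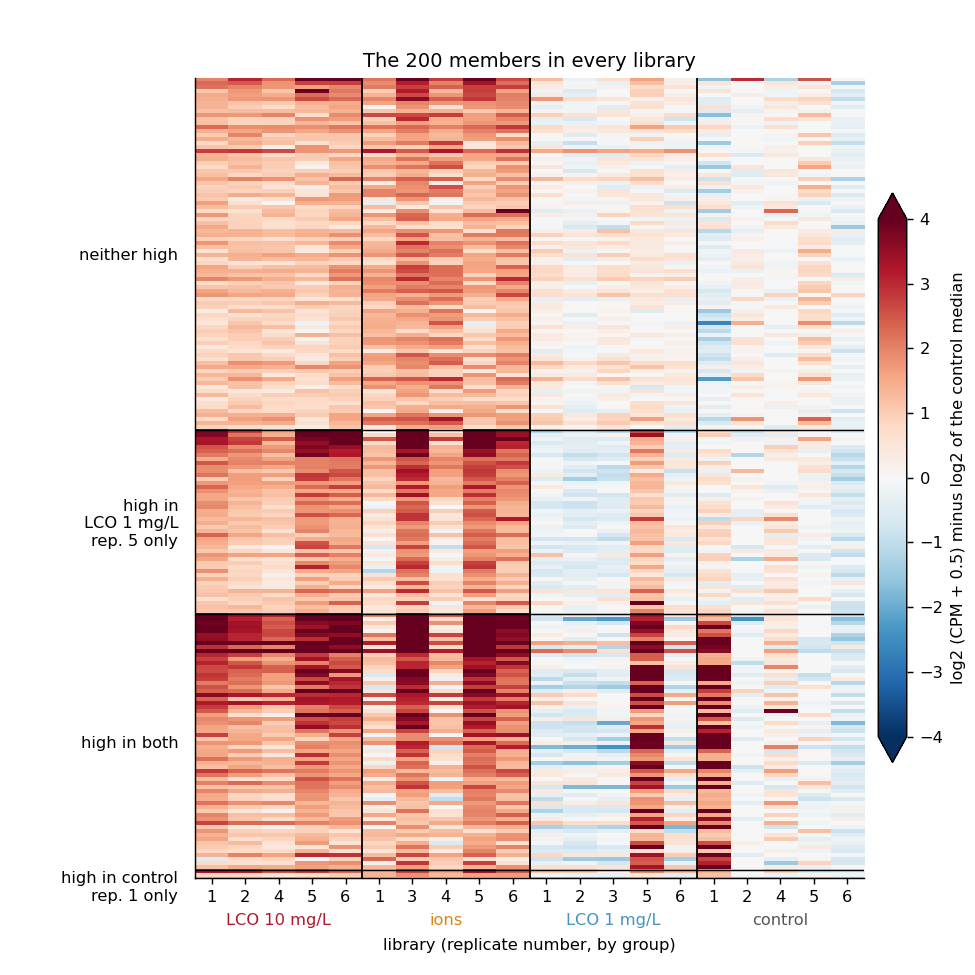
Log2(CPM + 0.5) minus the log2 of the control median in colour, red for higher and blue for lower, with colours saturated at 4 and -4, for each of the 200 members (rows, by whether LCO 1 mg/L replicate 5 and control replicate 1 stood high, then by rank) in each of the 20 libraries (columns, by group). The LCO 10 mg/L and ion columns are red almost throughout, ion replicates 1 and 4 are pale in the lower blocks, and LCO 1 mg/L replicate 5 and control replicate 1 are dark red in many of the 64 members with both high.

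The library medians of the 64 members with both libraries high differed widely between pools, and the high level of LCO 1 mg/L replicate 5 and control replicate 1 among them is set by the sorting. Their library medians on the log2 scale over control were 1.99, 1.69, 1.36, 2.12 and 1.88 at LCO 10 mg/L and 0.97, 2.71, 1.09, 2.63 and 2.01 with the ions. At LCO 1 mg/L they were -0.19, -0.31, -0.17, 2.71 and 0.06, and in control 2.69, 0, 0.34, 0 and -0.47. The medians of ion replicates 1 and 4 lay below those of every LCO 10 mg/L library. The sorting did not use the ion libraries, but the rule did. Its ion median can be carried by 3 high libraries, so the shares given here for ion replicates 1 and 4 are descriptive. Member by member, ion replicates 1 and 4 both lay below the other 3 ion libraries in 49 of the 64 (76.6%), in 44 of the 46 high in LCO 1 mg/L replicate 5 alone (95.7%) and in 29 of the 88 with neither high (33.0%), against 14.4% of the tested targets. The 46 members high in LCO 1 mg/L replicate 5 alone had ion medians of 0.70, 2.48, 0.79, 2.27 and 1.66. The 88 members with neither library high varied less, from 0.95 to 1.22 across the LCO 10 mg/L libraries, from 1.32 to 1.86 across the ion libraries, from 0.02 to 0.44 across the LCO 1 mg/L libraries and from -0.30 to 0.44 across the controls. Over all 200 members, ion replicates 1 and 4 lay at or below 0.5 times their group median in 56 and 49 members (28% and 24.5%), against 1.49% and 2.94% of the tested targets. Their totals were 24876759 and 20744445 counts, and those of ion replicates 3, 5 and 6 were 28150903, 29234877 and 21018424. With every library thinned to the smallest total, 305 targets passed the limits, among them 198 of the 200 members. This describes the list only. The levels of ion replicates 1 and 4 after thinning are not given, and why they lay low was not tested.

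**Figure D2:**
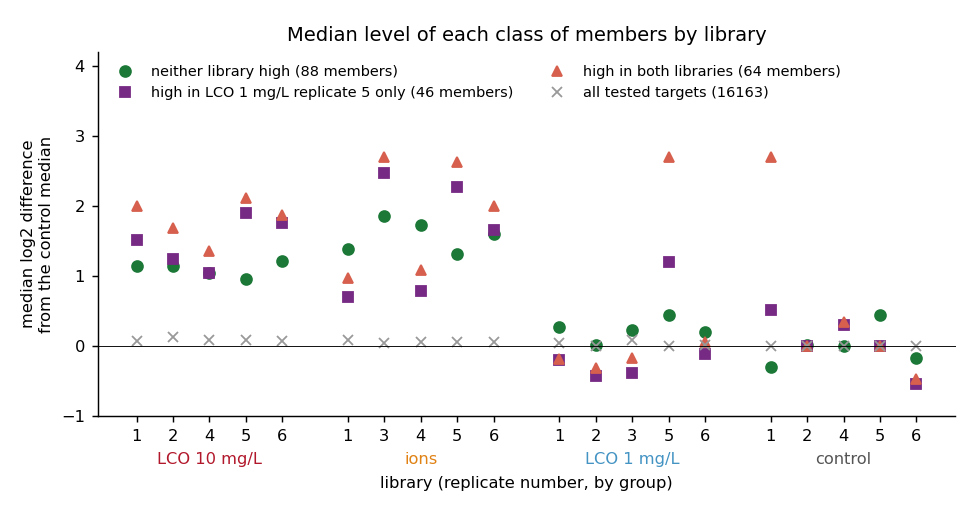
Median over each class of members of log2(CPM + 0.5) minus the log2 of the control median, for each of the 20 libraries by group on the x axis, for the 88 members with neither library high (circles), the 46 high in LCO 1 mg/L replicate 5 alone (squares), the 64 high in both libraries (triangles) and all 16163 tested targets (crosses). The triangles reach 2.71 in LCO 1 mg/L replicate 5 and 2.69 in control replicate 1, whereas the circles stay at or below 0.44 in all LCO 1 mg/L and control libraries.

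The highest-ranked of the 88 members with neither library high, chosen after their values were seen, were KZS11783 at rank 25 and KZS12838 at rank 30. KZS12838, of 625 bases, stood at 1861, 2110, 1364, 2569 and 2640 CPM at LCO 10 mg/L, 1450, 3400, 1541, 3903 and 1788 CPM with the ions, 539, 380, 307, 885 and 464 CPM at LCO 1 mg/L, and 556, 389, 544, 350 and 160 CPM in control. All 10 LCO 10 mg/L and ion libraries lay above all 10 others, and the control and LCO 1 mg/L ranges overlapped. The log2 fold change of KZS12838 at LCO 1 mg/L over control was 0.31 (SE 0.36, Benjamini-Hochberg adjusted p = 0.64, edgeR's quasi-likelihood test). Per length it was among the abundant members, with a median of 5424 TPM at LCO 10 mg/L and 4846 TPM with the ions. KZS11783, of 635 bases, was uneven, at 14.6, 30.8, 17.7, 601 and 150 CPM at LCO 10 mg/L, 16.2, 1186, 25.9, 317 and 23.2 CPM with the ions, 8.49, 2.56, 5.69, 11.03 and 3.93 CPM at LCO 1 mg/L, and 0.725, 29.3, 1.06, 21.4 and 3.28 CPM in control. Its LCO 1 mg/L libraries lay below all LCO 10 mg/L and ion libraries, but control replicates 2 and 5 lay within the range of both.

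All 10 LCO 10 mg/L and ion libraries lay above all 10 LCO 1 mg/L and control libraries in 36 members (18%), a pattern that the rule favours and that 1.37% of the tested targets showed. Of the 36, 29 were among the 88 members with neither library high. Without LCO 1 mg/L replicate 5 and control replicate 1 the count was 96, against 2.15% of the tested targets, and without LCO 1 mg/L replicate 5 alone it was 59, against 1.76%. Each pair of groups taken alone separated more members. The LCO 10 mg/L libraries lay above all controls in 97 members (13.3% of the tested targets did) and above all LCO 1 mg/L libraries in 71 (4.58%). The ion libraries lay above all controls in 85 members (12.2%) and above all LCO 1 mg/L libraries in 74 (10.1%).

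To see the members in libraries that had no part in choosing them, the rule was applied 20 times, each time with one library left out, and the 200 targets then chosen were read in that library. The share of them that exceeded 1.5 times both the LCO 1 mg/L and the control median was 85.5%, 85%, 75%, 78.5% and 92.5% in the left-out LCO 10 mg/L libraries, where 4.75% to 8.84% of all tested targets did so. It was 55%, 96%, 57.5%, 83% and 90% in the left-out ion libraries, where 6.29% to 17.0% of the tested targets did so. Most chosen targets thus passed this bar in the left-out LCO 10 mg/L or ion pool, least often in ion replicates 1 and 4. The medians that set the bar had also served to choose the targets as low in those groups. This eases the bar for any left-out library, so the shares are descriptive. In the left-out LCO 1 mg/L libraries the share was 3.5%, 0%, 2.5%, 68% and 5.5%, and in the left-out controls 49%, 5%, 17%, 21% and 1.5%, where 0.681% to 5.83% of the tested targets did so. LCO 1 mg/L replicate 5, at 68%, lay above ion replicates 1 and 4, and control replicate 1, at 49%, lay below every LCO 10 mg/L and ion library. The median level of these targets in the left-out library, on the log2 scale over control, ran from 1.02 to 1.58 at LCO 10 mg/L and from 0.88 to 2.09 with the ions. It was 1.10 in LCO 1 mg/L replicate 5 and 0.66 in control replicate 1, and from -0.49 to 0.24 in the other 8 libraries of those groups.

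**Figure D3:**
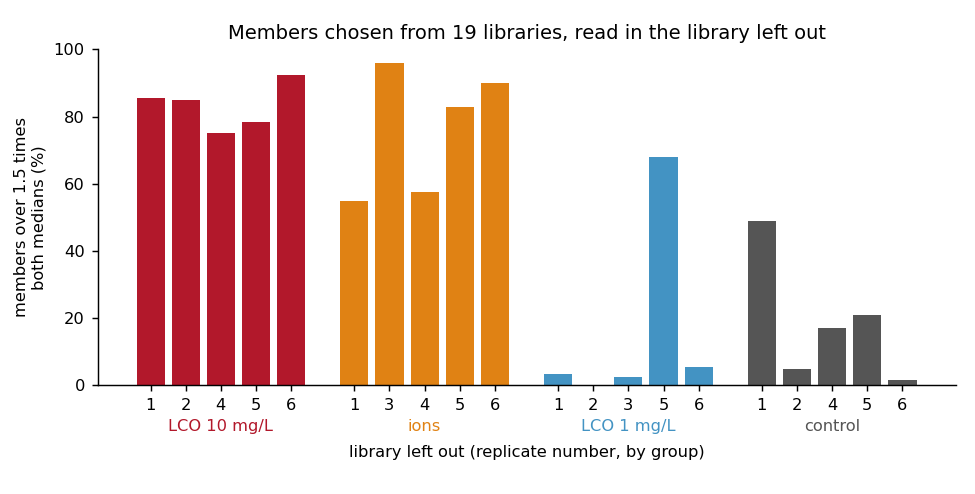
Share in percent (bars) of the 200 targets chosen from the other 19 libraries that exceeded 1.5 times both the LCO 1 mg/L and the control median in the library left out, for each of the 20 libraries by group on the x axis. The LCO 10 mg/L libraries lie between 75% and 92.5% and the ion libraries between 55% and 96%, LCO 1 mg/L replicate 5 stands at 68% and control replicate 1 at 49%, and the other 8 libraries lie at or below 21%.

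A fit across all 16163 tested targets weighs every library, where the rule used medians. All 200 members were among the tested targets. Of the members, 117 were called higher at LCO 10 mg/L than in control by edgeR's quasi-likelihood test at an adjusted p under 0.05 (13.7% of all tested targets were), and 144 were called higher with the ions than in control (25.4%). Against LCO 1 mg/L, 69 were called higher at LCO 10 mg/L (1.58% of the tested targets) and 140 with the ions (20.8%). These comparisons are those of the rule, so the counts describe how many members also passed a test that uses all libraries. In total 66 members (33%) were called higher in all 4 comparisons, as 1.14% of the tested targets were, and 44 (22%) were called in none, as 36.8% of the tested targets were. Of the 44 called in none, 37 were among the 64 members with both libraries high, and of the 66 called in all 4, 44 were among the 88 with neither high. Without LCO 1 mg/L replicate 5 and control replicate 1, 139 members were called higher in all 4 (2.02% of the tested targets) and only KZS19330, named after its values were seen, was called in none (37.9%).

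In some members the fit and the medians pointed in opposite directions. The fitted log2 fold change was below 0 in 28 members for LCO 10 mg/L against control, in 25 for ions against control, and in 20 each for LCO 10 mg/L and for the ions against LCO 1 mg/L. Nearly all belonged to the 64 members with both libraries high, 27 of the 28, 25 of the 25, and 19 of the 20 in each of the others. For KZS12048, KZS06886 and KZS18516, named after their values were seen, the fit called the ions lower than control (24.7% of the tested targets were) although the ratio of their medians was 3.23, 2.46 and 2.36. KZS12048 was also called lower at LCO 10 mg/L (16.7%). Control replicate 1 held 2896 CPM of KZS12048, where the other controls held 1.27 to 2.71 CPM. It held 2997 CPM of KZS06886, where the others held 5.06 to 9.24 CPM. It held 572 CPM of KZS18516, where the others held 0.164 to 0.592 CPM. Without control replicate 1 and LCO 1 mg/L replicate 5, 159 members were called higher at LCO 10 mg/L than in control (12.5% of the tested targets) and 191 with the ions (22.7%), and none was called lower in either, where 16.1% and 23.6% of the tested targets were. Against LCO 1 mg/L, 157 were then called higher at LCO 10 mg/L (3.32%) and 197 with the ions (19.9%). The count for LCO 10 mg/L over LCO 1 mg/L also moved with single pools, to 114 without LCO 1 mg/L replicate 5 (2.27% of the tested targets). It was 26, 41 and 42 without replicates 2, 3 and 6 of LCO 1 mg/L (0.552%, 0.888% and 0.997%), and 45 and 37 without LCO 10 mg/L replicates 1 and 6 (1.01% and 0.705%), so the share over all tested targets was smaller in these fits too.

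**Figure D4:**
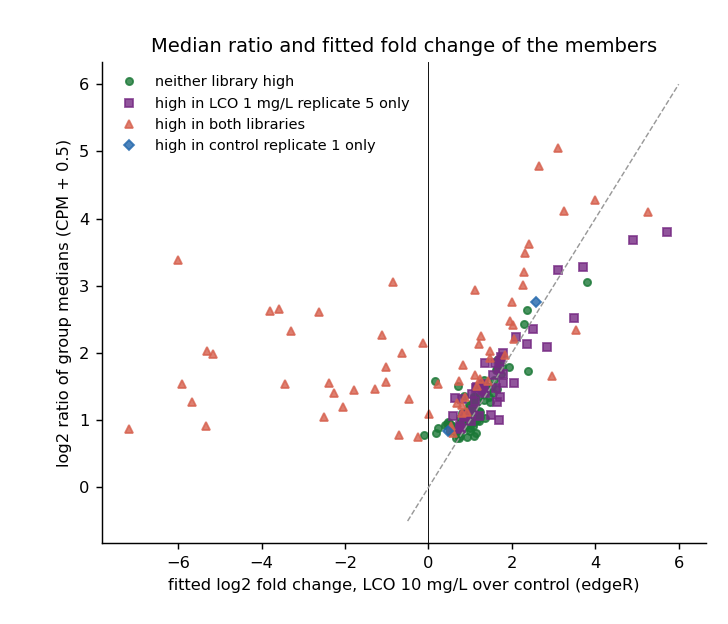
For each of the 200 members (points, with shapes by whether LCO 1 mg/L replicate 5 and control replicate 1 stood high), the fitted log2 fold change of LCO 10 mg/L over control on the x axis and the log2 ratio of the medians of the same groups on the y axis, with a dashed line where both are equal. Points left of 0 are the 28 members whose fit is opposite to their medians, 27 of them among the 64 members with both libraries high.

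The comparison of LCO at 1 mg/L with control bears on whether the members had already begun to move at the lower dose. The rule set no direct limit on this ratio, but both medians entered it and had to lie below those of the raised groups. Targets already near the raised level at LCO 1 mg/L were thus left out by the rule. A low share of calls among the members can follow in part from this, so the shares and calls are descriptive. The median ratio was 1.02 over the members and likewise 1.02 over the tested targets. It reached 1.5 in 23 members (11.5%, against 7.58% of the tested targets) and was at or below 1/1.5 in 16 (8%, against 6.81%). The fitted log2 fold change had a median of 0.06 over the members and -0.03 over the tested targets. By edgeR's quasi-likelihood test 4 members (2%) were called, all higher at LCO 1 mg/L, where 9.33% of the tested targets were called, 5.64% higher and 3.69% lower. At an unadjusted p under 0.05 there were 16 (8%), of which 4 were lower (2%), against 25.3% and 13% of the tested targets. Without control replicate 1 and LCO 1 mg/L replicate 5 there were 27, of which 14 were lower, against 24.9% and 12.5%. In both fits the members' share at this p was under that of all tested targets. The within-group spread of the members was wider, with a median SD of log2(CPM + 0.5) of 0.59 at LCO 1 mg/L and 0.63 in control, against 0.21 and 0.25 over the tested targets. Without those libraries it was 0.27 and 0.47, against 0.18 and 0.23. The members were chosen by medians of these groups, so the spread too is descriptive.

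That count rested on single pools. It was 11, all higher, without control replicate 1 (8.27% of the tested targets were called, 5.25% higher) and 23 without LCO 1 mg/L replicate 5 (12.3%), of which 2 were higher (6.73%) and 21 lower (5.53%). Without both libraries it was 8, of which 4 were higher and 4 lower (9.25% of the tested targets were called, 5.74% higher and 3.51% lower). The count was 7 without control replicate 5 (9.53%). It was 2 without control replicate 4 or 6 (6.01% and 6.16%), without LCO 10 mg/L replicate 1, 2 or 4 (8.92%, 8.08% and 8.15%), and without LCO 1 mg/L replicate 1, 3 or 6 (4.84%, 5.58% and 7.9%).

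KZS07198, at rank 104 and 794 bases long, had the largest change of the 4. Its level was 169, 177, 153, 82.7 and 81.6 CPM at LCO 10 mg/L, 227, 133.5, 232, 119.5 and 185 CPM with the ions, 70.7, 86.1, 75.2, 68.2 and 84.6 CPM at LCO 1 mg/L, and 25.9, 22.6, 27.7, 24.2 and 20.1 CPM in control. All LCO 1 mg/L libraries lay above all controls, with no library of either group standing apart, while LCO 10 mg/L replicates 5 and 6 fell within the LCO 1 mg/L range. KZS07198 rose 1.61 on the log2 scale at LCO 1 mg/L over control (SE 0.23, adjusted p = 0.00038 by edgeR), higher in 5 of 5 libraries. The others called, named after their values were seen, were KZS06936 at rank 197, KZS02994 at rank 157 and KZS11735 at rank 182. Their log2 fold changes were 0.67 (SE 0.13), 0.76 (SE 0.23) and 0.63 (SE 0.19), with adjusted p of 0.0035, 0.046 and 0.046 by edgeR. All 4 were among the 88 members with neither library high.

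The member with the highest ratio of medians, KZS10132, did not pass the test. Its LCO 1 mg/L median was 4.75 times the control median, and its level was 1664, 1452, 1251, 1422 and 1435 CPM at LCO 10 mg/L, 461, 1527, 388, 1962 and 1883 CPM with the ions, 206, 160, 65.0, 1120 and 260 CPM at LCO 1 mg/L, and 542, 42.9, 135, 20.9 and 22.2 CPM in control. The LCO 10 mg/L libraries lay within a narrow range, whereas the LCO 1 mg/L and control libraries overlapped widely, and the log2 fold change of KZS10132 was 1.18 (SE 0.84, adjusted p = 0.41 by edgeR). Without control replicate 1 and LCO 1 mg/L replicate 5 it was 1.60 (SE 0.61, adjusted p = 0.11 by edgeR). KZS07198 had the next highest ratio, 3.07.

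The lowest ratios belonged to KZS04055 and KZS03171, at 0.294 and 0.354. KZS04055 stood at 8.22, 5.41, 3.92, 12.2 and 10.3 CPM at LCO 10 mg/L, 2.21, 24.9, 1.30, 14.3 and 27.6 CPM with the ions, 0.428, 0.290, 0.106, 317.5 and 0.642 CPM at LCO 1 mg/L, and 70.0, 2.66, 12.3, 1.30 and 1.11 CPM in control. A single LCO 1 mg/L library held more than all LCO 10 mg/L and ion libraries together, and the fit gave KZS04055 a log2 fold change of 1.80 at LCO 1 mg/L over control (SE 1.61, adjusted p = 0.52 by edgeR), opposite in sign to its medians. Without LCO 1 mg/L replicate 5 and control replicate 1 the log2 fold change of KZS04055 was -3.63 (SE 1.01, adjusted p = 0.031 by edgeR), in the direction of the medians. Control replicate 4 exceeded every LCO 10 mg/L library, and ion replicates 1 and 4 lay below the control median of 2.66 CPM. The log2 of the smallest ratio of KZS04055 was 1.46 with all libraries. It was 0.26, 0.131 and 0.131 without control replicate 2, 5 or 6, each short of the limit of 1.5 times. KZS03171 stood at 25.7, 23.7, 24.6, 49.5 and 42.0 CPM at LCO 10 mg/L, 26.1, 82.1, 35.5, 73.2 and 33.9 CPM with the ions, 6.61, 2.82, 2.79, 114 and 3.55 CPM at LCO 1 mg/L, and 577, 10.9, 6.59, 14.7 and 6.14 CPM in control. The other 4 libraries of each low group lay below every LCO 10 mg/L and ion library, and the log2 fold change of KZS03171 at LCO 1 mg/L was -2.32 (SE 1.27, adjusted p = 0.26 by edgeR), and without those libraries it was -1.32 (SE 0.42, adjusted p = 0.055).

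**Figure D5:**
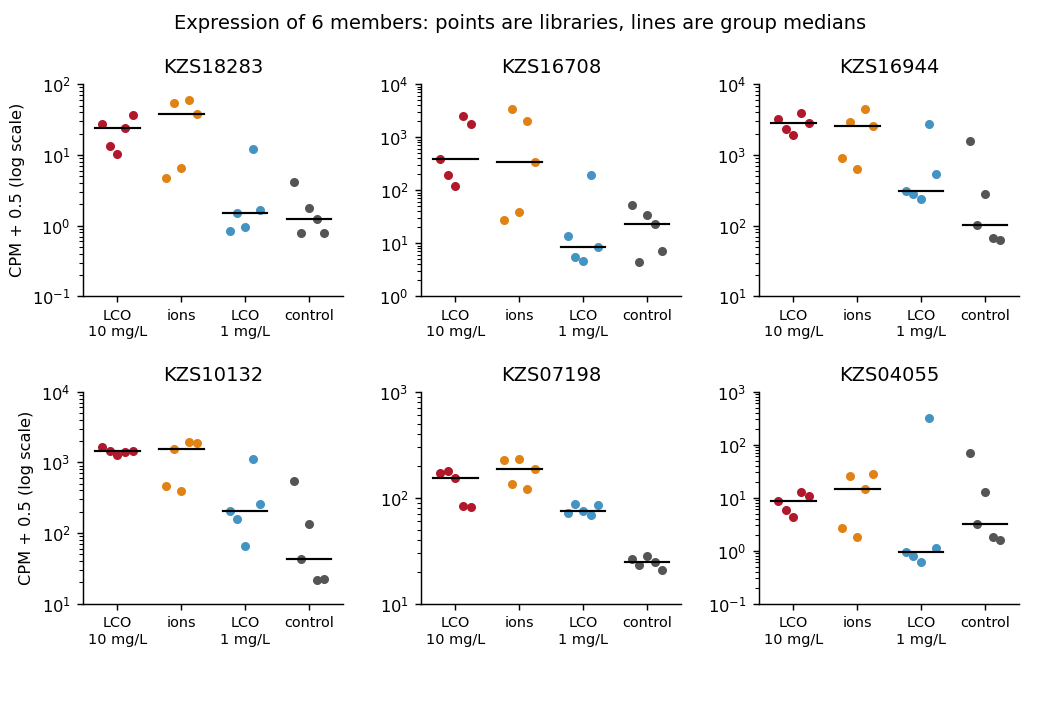
CPM + 0.5 on a log axis in each library (points, left to right by replicate number) with the group median (lines) for 6 members, by group on the x axis in the order LCO 10 mg/L, ions, LCO 1 mg/L and control. KZS07198 shows its 5 LCO 1 mg/L libraries above all controls, and KZS18283, KZS16708, KZS16944, KZS10132 and KZS04055 each show 1 LCO 1 mg/L library, replicate 5, far above the other 4.

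Between LCO 10 mg/L and the ions the rule kept the ratio of medians from 0.5 to 1.5, a span that reaches further where the ions are higher than where LCO 10 mg/L is higher. The ratio of LCO 10 mg/L to ions had a median of 0.840 over the members, and the ion median was higher in 139 members (69.5%), against 46.2% of the tested targets. Among the 159 members whose ratio lay between 1/1.5 and 1.5, limits of equal size in both directions, the ion median was higher in 98 (61.6%), against 46.9% of the tested targets within the same limits. The rule limited this ratio and its lopsided span favours the ions, so the values and the direction of the calls are descriptive. Of the members, 25 (12.5%) were called lower at LCO 10 mg/L than with the ions and none higher by edgeR's quasi-likelihood test, where 13.8% of the tested targets were called lower and 11.3% higher. Of the 25, 24 were among the 88 members with neither library high, and the other was KZS20137. The count of 25 moved to 6 without LCO 10 mg/L replicate 5 (5.6% of the tested targets were called lower), to 11 without ion replicate 3 (8.83%), to 11 without ion replicate 4 (5.61%) and to 16 without ion replicate 6 (10.8%).

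At the ends of that span, KZS13300 and KZS16095 had the lowest ratios, 0.51 and 0.507. KZS13300 stood at 22.8, 14.9, 17.1, 18.2 and 26.5 CPM at LCO 10 mg/L, 21.4, 51.9, 36.1, 22.9 and 38.2 CPM with the ions, 13.4, 9.37, 12.5, 10.0 and 8.04 CPM at LCO 1 mg/L, and 6.57, 10.9, 6.45, 13.5 and 7.25 CPM in control. Its LCO 10 mg/L and ion libraries overlapped in part, and all 10 lay above the LCO 1 mg/L and control libraries. KZS16095 stood at 44.3, 46.0, 41.1, 59.2 and 47.5 CPM at LCO 10 mg/L, 27.5, 135, 26.3, 91.2 and 170.5 CPM with the ions, 16.3, 11.01, 12.1, 127 and 15.2 CPM at LCO 1 mg/L, and 8.57, 32.7, 69.1, 18.0 and 15.4 CPM in control. Its ion libraries fell into a low pair, replicates 1 and 4, and 3 high libraries, whereas the LCO 10 mg/L libraries were even.

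The highest ratios of LCO 10 mg/L to ions were those of KZS07180 and KZR95950, at 1.44 and 1.41. KZS07180 stood at 86.8, 49.2, 31.9, 145 and 125 CPM at LCO 10 mg/L, 4.90, 136, 6.65, 182 and 60.2 CPM with the ions, 4.85, 5.39, 4.88, 55.7 and 6.04 CPM at LCO 1 mg/L, and 21.4, 4.24, 8.50, 4.56 and 3.56 CPM in control. Ion replicates 1 and 4 were again at the level of the controls, while its ion replicates 3 and 5 were among the highest of all libraries. KZR95950, with fractional counts in all 20 libraries and therefore an uncertain level, stood at 20.5, 10.3, 7.74, 16.1 and 17.2 CPM at LCO 10 mg/L, 2.18, 26.0, 4.63, 23.8 and 11.3 CPM with the ions, 3.18, 4.01, 3.84, 9.91 and 4.09 CPM at LCO 1 mg/L, and 8.24, 5.23, 8.28, 5.42 and 3.28 CPM in control. Its lowest ion libraries likewise lay below most controls.

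Length and fractional counts, which the rule did not use, were near those of other targets. The members had a median length of 1797 bases, against 1866 bases over the tested targets, and 55 members (27.5%) held a fractional count in some library, against 24.2% of the tested targets. Within groups the members varied more than other targets in the raised groups too, with a median SD of log2(CPM + 0.5) of 0.37 at LCO 10 mg/L and 0.62 with the ions, against 0.20 and 0.28 over the tested targets. The members were chosen by medians of these same libraries, so their spread is descriptive.

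Some members had neighbouring identifier numbers, which are given as numbers only, since no position in the genome goes with them. A member next in number to another member was found 34 times, in 15 runs, of which 14 held 2 members and 1 held 6. How often this occurs in other sets of targets was not counted, so whether it is unusual is not known. The run of 6, from KZS16939 to KZS16944, lies in a stretch of 9 identifiers from KZS16936, of which 8 were members, while KZS16938 had no count in any library. The members of this stretch, picked after their values were seen, differed in level and in pattern. KZS16940 stood at 668, 1065, 979, 1041 and 861 CPM at LCO 10 mg/L, 725, 1021, 819, 1149 and 919 CPM with the ions, 469, 306, 511, 695 and 609 CPM at LCO 1 mg/L, and 327, 503, 441, 415 and 347 CPM in control, and all 10 LCO 10 mg/L and ion libraries were at or above the others but for LCO 1 mg/L replicate 5 over LCO 10 mg/L replicate 1. KZS16943 stood at 9.40, 10.9, 7.81, 15.3 and 8.24 CPM at LCO 10 mg/L, 2.49, 12.9, 4.43, 16.4 and 11.2 CPM with the ions, 1.43, 1.14, 0.990, 39.5 and 1.89 CPM at LCO 1 mg/L, and 630, 0.930, 5.75, 1.10 and 0.696 CPM in control. In KZS16943, control replicate 1 thus held far more than any exposed library. The ratio of LCO 10 mg/L to control across the 8 members ran from 2.36 for KZS16940 to 27.6 for KZS16944. Across the 20 libraries, which all 8 share, the median Pearson correlation of log2(CPM + 0.5) between members of the stretch was 0.72, and between all members 0.67, both given as descriptions.

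The member at the limit, KZR95496, of 327 bases and with fractional counts in 19 libraries, stood at 2.65, 2.27, 1.89, 1.60 and 3.13 CPM at LCO 10 mg/L, 1.77, 4.08, 4.63, 2.04 and 2.93 CPM with the ions, 1.28, 1.18, 1.87, 1.19 and 0.697 CPM at LCO 1 mg/L, and 1.28, 1.15, 0.656, 1.78 and 0.860 CPM in control. Its groups overlapped in single libraries, and it shows how small the difference was at the lower end of the list. KZS20840, just outside, had medians of 114 CPM at LCO 10 mg/L, 105 CPM with the ions, 64.1 CPM at LCO 1 mg/L and 56.8 CPM in control.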

How the data were processed

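RNA was measured in 20 libraries, grouped by their titles. Estimated counts (expected counts, not normalized) and TPM values (scaled by effective length) were deposited per target, per the file headers. Which program counted the reads is not given in the sources used here, nor are its annotation and build. The members and lists were chosen with earlier results of these data known. None of the identifiers matched the gene table (0 of 26646), so lists by product name were not run and at most 2 identifiers were named per pattern: the largest smallest ratio, the highest CPM at LCO 10 mg/L, and the ends of the ratios of LCO 1 mg/L to control and of LCO 10 mg/L to ions. Any others are said to have been chosen after their values were seen.

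CPM was computed from unrounded counts over the library sum. For the tests, counts were rounded, and edgeR 4.0.16 was run under R 4.3.3 (filterByExpr, minimum count 10, minimum total 15, 4 groups; TMM; quasi-likelihood fit of all 20 libraries with group as the only term; two-sided; Benjamini-Hochberg adjustment over all 16163 targets). SEs are the size of the log2 fold change over the square root of F. The fit was also run on simulated counts, drawn around each target's control mean with set changes in some targets and no pool standing apart. That run does not show how the fit behaves where single pools stand high. No 2 libraries of a group agreed within sampling noise (smallest chi-square per degree of freedom 21.3), and each was counted as a replicate. This does not show that the pools were independent. Totals of 20744445 to 44181066 leave counting error small except for targets with few counts. Alternatives used DESeq2 1.42.0 and limma 3.58.1 on log2(TPM + 1), among others. Replicate numbers showed no general pairing of the libraries and were left out of the main fit.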

Additional observations from a re-analysis of the deposited data

Results flagged for a closer look

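Within groups of 5 libraries, the gaps from the highest library to the next and from the lowest to the next were taken. The larger gap was expressed as a share of the group's range. It passed Dixon's critical ratio of 0.71 in 17 of the 56 groups examined. The values were not put on a log scale, and the rule's medians pass over a single high library. How often such members pass the ratio by chance was not tested. In all 17 the library was the highest of its group, 10 times LCO 1 mg/L replicate 5 and 7 times control replicate 1. The members' summed share of counts was among them, with a ratio of 0.817 at LCO 1 mg/L and 0.749 in control. For LCO 1 mg/L replicate 5 the ratio was 0.927 in KZS18283, 0.954 in KZS16708, 0.881 in KZS16944, 0.816 in KZS10132, 0.998 in KZS04055, 0.966 in KZS03171, 0.976 in KZS07180, 0.866 in KZR95950 and 0.954 in KZS16095. For control replicate 1 it was 0.711 in KZS18283, 0.858 in KZS16944, 0.782 in KZS10132, 0.838 in KZS04055, 0.985 in KZS03171 and 0.724 in KZS07180. These members share the same libraries, so the 17 groups are not independent of each other.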

How the results depend on the processing

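The rule passed 307 targets, and 108 when the limit was 2 times. Every other alternative gave 248 to 356, with 255 to 356 when one library was left out, and 144 (group means) to 200 of the members still passed. With group means, the log2 of the smallest ratio turned negative in KZS04055 (-2.92) and KZS03171 (-1.88). The 4 members called between LCO 1 mg/L and control became 2 with no filter on low counts, 7 with the DESeq2 Wald test, 9 without control replicate 1, LCO 1 mg/L replicate 5 and ion replicate 5, 8 without the first 2 of these (chosen after seeing the data), and 2 to 23 when one library was left out. The log2 fold change of KZS07198 in this comparison ran from 1.56 to 1.67 when one library was left out. The 25 called lower at LCO 10 mg/L than with the ions became 15 with no filter, 40 without the 3 libraries, and 6 to 32 when one library was left out. The 69 called between LCO 10 mg/L and LCO 1 mg/L became 109 with the DESeq2 Wald test, 166 without the 3 libraries, 157 without the 2, and 26 to 114 when one library was left out. The 36 members with no overlap became 96 without the 2 libraries and 36 to 59 when one was left out. The cause was not tested. The counts of the other 3 comparisons stayed within 1.5 times under every alternative run.

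The replicate numbers were taken as a block in one alternative, which left 2 members called between LCO 1 mg/L and control and 8 between LCO 10 mg/L and the ions. The other 4 counts stayed within 1.5 times. Same-numbered libraries did not in general deviate together, with correlations from -0.426 to 0.492 over 25 pairs, 9 of them over 0.1. Of 20 libraries, 4 correlated best with their own number. The highest values were 0.492 for replicate 4 and 0.347 for replicate 5, both between LCO 10 mg/L and ions. The main fit did not treat the libraries as paired, and whether some numbers share a batch was not tested.

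Depth limits the members with control medians under 1 CPM, whose ratios rest on few counts and on the offset of 0.5.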
